A study of Arabidopsis thaliana with 12 samples.

Results

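Aquaporins are membrane channels for water and small solutes, and several members of the family are made mainly in anthers and pollen. NIP4;1 and NIP4;2 are closely related channels of the nodulin 26-like group that pollen uses during its development and the growth of its tube, and NIP7;1 of the same group is a boric acid channel of developing anthers. TIP1;3 and TIP5;1 belong to the group of tonoplast channels, carry water and urea, and are known for expression in pollen. The genes described here are these 5 loci, taken by their identifiers (AT5G37810, AT5G37820, AT3G06100, AT4G01470 and AT3G47440, in the order just named) out of 33602 genes with counts. Of the 5, 4 passed the filter on low counts and were tested, and AT5G37820 (NIP4;2) did not pass.

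RNA-seq was carried out on Arabidopsis thaliana flowers of 3 genotypes, each sampled as open flowers and as floral buds, with 2 libraries per genotype and tissue and 12 libraries in all. The ask1 plants carried a Ds insertion in ASK1, which encodes a SKP1-like adaptor of SCF ubiquitin ligases. The ASK1 WT plants had the wild-type allele of that gene, and Col-0 was the second control. Every library carried the strain label Col-0, and all plants grew in 16 h of light at 21 °C and 8 h of dark at 19 °C and were collected 5 h after dawn, from 10 to 50 mg of tissue per sample. The labels gave no other treatment and did not say whether 2 libraries of a group came from separate plants, so p-values measure only the spread between these samples, which may be technical.

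Counts in genes ranged from 13780265 to 23426466 per library, and a count of 0 allowed at most 3 counts, or 0.128 to 0.218 CPM (counts per 1000000 counts in genes). ASK1 itself lay between 10.1 and 50.9 CPM in the 4 ask1 libraries, against 247 to 310 CPM in the 8 control libraries. One pair of replicates stood apart. Across 21826 genes, which are not independent of each other, the difference between both ask1 open-flower libraries had a rank correlation of -0.618 with exon length, whereas the same value lay between -0.080 and 0.058 in the other groups. This value does not tell which library of the pair is apart. For the members, values without either library of that pair are therefore given where a call changed. Values of the other genes in ask1 open flowers rest on both libraries. Levels below are CPM with TMM scaling, and changes are log2 fold changes ± SE from an edgeR quasi-likelihood fit to all 12 libraries (n = 2 per group). A gene is said to rise or fall where its Benjamini-Hochberg p, adjusted over 21890 tested genes, was under 0.05.

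In ask1 open flowers TIP5;1 alone of the 4 tested aquaporin genes fell, against both controls. NIP4;1 and NIP7;1 rose there against ASK1 WT and TIP1;3 rose against Col-0, all from low counts and with calls that were lost when single libraries were left out. In ask1 buds, 3 of the 4 (all but the boric acid channel gene) fell 9.26-fold to 17.5-fold against both controls. The share of all tested genes that fell against ASK1 WT was 15.9% in open flowers and 17% in buds, and 14.3% and 14.1% against Col-0. The share that rose was 14.1% in open flowers and 8.84% in buds against ASK1 WT, and 12.9% and 7.04% against Col-0. In these bulk samples fewer cells of a type and less RNA per cell cannot be told apart.

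**Figure D1:**
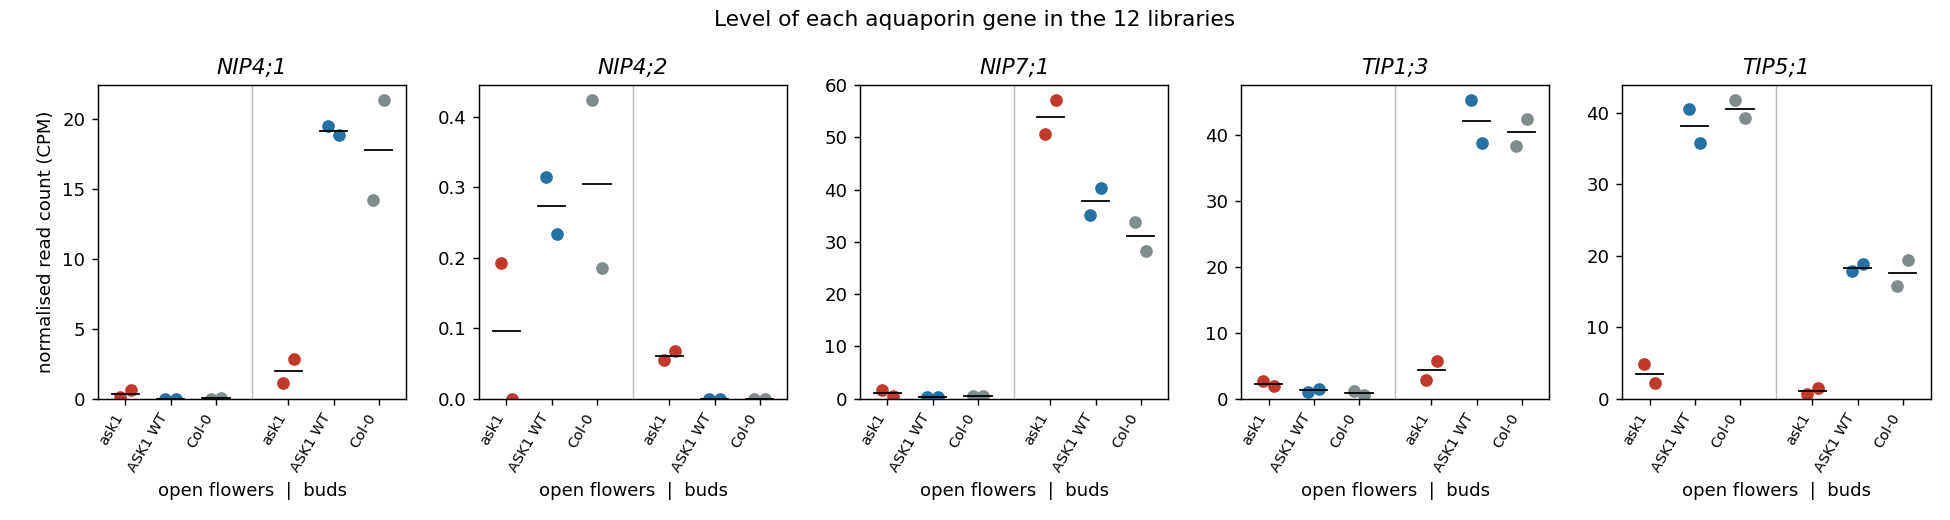
Normalised read count (CPM, linear axis from 0, a separate scale for each gene) of the 5 aquaporin genes in each of the 12 libraries, with open flowers left of buds and ask1 left of ASK1 WT and Col-0. Points are libraries and bars are means of 2. NIP4;1, NIP7;1 and TIP1;3 are high in control buds and near 0 in control open flowers, TIP5;1 is higher in control open flowers than in control buds, and NIP4;2 reaches at most 0.424 CPM.

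NIP4;1 and NIP4;2 lie side by side on chromosome 5, both on the forward strand, at 15045114 to 15048012 and 15050002 to 15051599 in TAIR10.1, with 1989 bases and no annotated gene between them. Their coding sequences were 88.0% identical over 852 aligned bases, and the longest stretch shared exactly by their exons, untranslated parts included, was 74 bases, shorter than the reads of 150 bases. A read of 150 exon bases therefore covers at least 1 difference, whereas a read trimmed to 74 bases or fewer may not. The split of counts between both genes is uncertain to that extent. The bases before their annotated starts are shown because the neighbours, so alike in their coding parts, had such different levels. These windows of 250 bases (RefSeq, TAIR10.1, forward strand, chr5:15044864-15045113 for the first gene and chr5:15049752-15050001 for the second) shared 54.5% of 231 aligned bases. Capitals mark AGAAA, an element known from the tomato LAT52 pollen promoter, on either strand, where it reads TTTCT on the strand shown.

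NIP4;1: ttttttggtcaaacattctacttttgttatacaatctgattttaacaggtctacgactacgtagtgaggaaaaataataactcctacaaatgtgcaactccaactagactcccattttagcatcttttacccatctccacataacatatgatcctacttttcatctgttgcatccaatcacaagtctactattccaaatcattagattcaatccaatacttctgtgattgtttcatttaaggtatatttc
NIP4;2: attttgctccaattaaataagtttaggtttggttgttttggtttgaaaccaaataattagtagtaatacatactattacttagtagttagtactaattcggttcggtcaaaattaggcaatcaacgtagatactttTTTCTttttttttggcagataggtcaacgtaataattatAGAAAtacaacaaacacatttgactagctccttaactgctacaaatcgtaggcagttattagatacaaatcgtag

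NIP4;1 was a gene of control buds. In open flowers it had 2 and 10 counts in the ask1 libraries (0.128 and 0.589 CPM), against 0 and 0 counts in ASK1 WT and 0 and 1 count in Col-0. In buds it stood at 1.09 and 2.84 CPM in ask1, against 19.5 and 18.9 CPM in ASK1 WT and 14.2 and 21.4 CPM in Col-0. Both ask1 bud libraries lay below all 4 control bud libraries. The gene fell in ask1 buds against ASK1 WT (-3.32 ± 0.43 on the log2 scale, 9.99-fold, edgeR adjusted p = 3.11e-04) and was at -3.21 ± 0.42 against Col-0 (9.26-fold, edgeR adjusted p = 5.01e-04). Without ask1 bud replicate 1 these values were -2.75 and -2.64, and without replicate 2 they were -4.13 and -4.02, past the threshold each time.

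Of all tested genes, 15.5% fell in open flowers against buds of ask1, 16.9% in the same contrast of ASK1 WT and 17.1% in that of Col-0. NIP4;1 was 252-fold lower in open flowers than in buds of ASK1 WT. This takes 3 counts over both flower libraries as the limit and the bud counts as they stood. In Col-0 it had 1 count in open flowers and 635 in buds, a ratio of 0.00172 with a 95% counting interval of 4.35e-05 to 0.00962. In ask1 it was at -2.36 ± 0.66 in open flowers against buds (5.13-fold lower, edgeR adjusted p = 0.0183). That last call was lost without ask1 bud replicate 2 (-1.55, adjusted p = 0.124), without ask1 open-flower replicate 1 (-1.72, adjusted p = 0.103) and without both (-0.93, adjusted p = 0.275), and stood at -3.82 without ask1 open-flower replicate 2. The 12 counts of both ask1 open-flower libraries together, taken as they stood, were 4.84-fold above a limit of 3 counts over both ASK1 WT libraries. The edgeR test against ASK1 WT passed narrowly there (adjusted p = 0.0493). That call was lost when any control library was left out (adjusted p = 0.0541 to 0.193) and without ask1 open-flower replicate 2 (adjusted p = 0.268). It was also lost with RLE size factors (adjusted p = 0.0512) and with the counts of the tandem pair summed (0.71 ± 0.73, adjusted p = 0.487). The ask1 effect differed between the tissues by 9.02 ± 1.76 (edgeR interaction, adjusted p = 0.0176), a size that depends on the 0 counts of ASK1 WT open flowers. The difference did not pass without ask1 open-flower replicate 2 (7.57, adjusted p = 0.105) or without either ASK1 WT open-flower library (8.89 and 8.93, adjusted p = 0.0669 and 0.0580). Against Col-0 open flowers the ratio of ask1 counts was 12, with a 95% counting interval of 1.78 to 515, and the edgeR test did not pass (adjusted p = 0.124), except without both ask1 open-flower replicate 1 and ask1 bud replicate 2 (3.93, adjusted p = 0.0200). Intervals on counts cover counting error only, and limits cover only that of the 0 counts.

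NIP4;2 was scarcely detected. In open flowers it had 3 and 0 counts in ask1, against 7 and 4 counts in ASK1 WT and 7 and 3 counts in Col-0. In buds each ask1 library had 1 count and none of the 4 control libraries had any, so the order of the tissues in the controls was the reverse of that of its neighbour. Its counts in open flowers, taken as they stood, were 3.24-fold above a limit of 3 counts over both bud libraries in ASK1 WT. In Col-0 they were 3.64-fold above the same limit. The ratio of ask1 to ASK1 WT in open flowers was 0.330, with a 95% counting interval of 0.0591 to 1.25, and the ratio to Col-0 was 0.301 (0.0533 to 1.17). At these counts a difference between genotypes was not detectable.

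NIP7;1 lies on chromosome 3 at 1841168 to 1843196, on the reverse strand. In open flowers the gene was low in every genotype, with 5 to 25 counts per library. It stood at 1.61 and 0.530 CPM in ask1, against 0.360 and 0.292 CPM in ASK1 WT and 0.484 and 0.495 CPM in Col-0. It rose in ask1 open flowers against ASK1 WT by 1.65 ± 0.51 (edgeR adjusted p = 0.0325), and the value against Col-0 was 1.09 ± 0.49 (edgeR adjusted p = 0.123). Without ask1 replicate 1, one of the pair that differed along exon length, these values were 0.62 (adjusted p = 0.467) and 0.05. Without ask1 replicate 2 the value against Col-0 passed (1.70, adjusted p = 0.00351). The rise against ASK1 WT was also lost without either ASK1 WT open-flower library (1.74 and 1.44, adjusted p = 0.129 and 0.144) and without either Col-0 open-flower library (1.57 each, adjusted p = 0.0539 and 0.0541). The tissue difference of the ask1 effect was 1.14 ± 0.55 (edgeR adjusted p = 0.230), and it passed without ask1 open-flower replicate 2 (1.75, adjusted p = 0.00674).

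NIP7;1 did not fall in ask1 buds. Its levels in buds were 50.6 and 57.2 CPM in ask1, 35.2 and 40.3 CPM in ASK1 WT, and 33.9 and 28.2 CPM in Col-0. Both ask1 libraries were above all 4 control libraries. It rose in ask1 buds against Col-0 by 0.79 ± 0.20 (1.73-fold, edgeR adjusted p = 0.0188). Against ASK1 WT the value was 0.51 ± 0.20 (95% interval 0.06 to 0.96) and did not pass (edgeR adjusted p = 0.0920). It passed there without ask1 open-flower replicate 1 (0.56, adjusted p = 8.94e-04) or replicate 2 (0.51, adjusted p = 0.00200), which are no part of that comparison but share the fitted spread. It also passed with only the buds of ask1 and ASK1 WT in the fit (0.57, adjusted p = 0.00344), with the exon length trend removed (0.50, adjusted p = 0.0374) and without both ask1 open-flower replicate 1 and ask1 bud replicate 2 (0.48, adjusted p = 0.00829). The rise against Col-0 did not pass without ask1 bud replicate 2 (0.70, adjusted p = 0.105), without Col-0 bud replicate 1 (0.93, adjusted p = 0.0538) or without Col-0 bud replicate 2 (0.67, adjusted p = 0.166).

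The boric acid channel gene fell between the stages in every genotype. Its value in open flowers against buds was -5.67 ± 0.29 for ask1 (51.0-fold lower, edgeR adjusted p = 2.28e-07), and it was -6.69 without ask1 open-flower replicate 1 and -5.06 without replicate 2. For ASK1 WT it was -6.81 ± 0.34 (112-fold lower, edgeR adjusted p = 1.60e-07), and for Col-0 -5.97 ± 0.33 (62.6-fold lower, edgeR adjusted p = 3.14e-07).

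TIP1;3 (chromosome 4, 624786 to 625885, reverse strand) is a gene of 1 exon, and TIP5;1 (chromosome 3, 17481996 to 17483158, forward strand) has 3 exons. Both encode tonoplast-type channels of pollen, yet their levels ran in opposite directions between the stages. The 250 bases before each start are shown for that reason, on the strand of the gene (RefSeq, TAIR10.1, chr4:625886-626135 reverse and chr3:17481746-17481995 forward), with AGAAA in capitals as above.

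TIP1;3: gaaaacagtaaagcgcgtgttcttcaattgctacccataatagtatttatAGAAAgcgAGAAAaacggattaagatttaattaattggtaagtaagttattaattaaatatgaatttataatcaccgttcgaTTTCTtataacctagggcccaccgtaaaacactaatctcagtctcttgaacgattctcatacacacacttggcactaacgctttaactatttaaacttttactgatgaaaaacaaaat
TIP5;1: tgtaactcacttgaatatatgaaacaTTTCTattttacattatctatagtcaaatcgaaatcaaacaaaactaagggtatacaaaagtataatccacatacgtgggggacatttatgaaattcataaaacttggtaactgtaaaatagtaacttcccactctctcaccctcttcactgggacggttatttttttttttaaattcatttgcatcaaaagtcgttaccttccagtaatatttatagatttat

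The AGAAA element was found 0, 2, 2, 3 and 1 times in the windows of the 5 genes, in the order of the opening paragraph. It occurred in 82.5% of 27443 promoter windows of the same length. GTGA, another element described in late pollen promoters, was searched on both strands as GTGA and TCAC and can overlap the end letters of AGAAA. It was found 3, 0, 2, 1 and 3 times in the same order, and in 77.5% of all windows. The CArG-type element of the pollen MIKC* MADS-box factors was in none of the 5 windows and in 2.2% of all. Presence of the first 2 elements was thus the common state of a promoter, and the matches are a description only.

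TIP1;3 was low in open flowers of every genotype. It had 2.63 and 1.94 CPM in ask1 open flowers, against 0.990 and 1.52 CPM in ASK1 WT and 1.09 and 0.557 CPM in Col-0, so that both ask1 libraries were above all 4 controls by a small absolute amount. It rose against Col-0 by 1.46 ± 0.45 (edgeR adjusted p = 0.0356), and the value against ASK1 WT was 0.89 ± 0.40 (95% interval -0.01 to 1.78, edgeR adjusted p = 0.121). The rise against Col-0 did not pass without ask1 open-flower replicate 1 (1.17, adjusted p = 0.188) or without Col-0 open-flower replicate 2 (0.97, adjusted p = 0.253). It also missed the threshold without Col-0 open-flower replicate 1 (1.93, adjusted p = 0.0639), either ASK1 WT open-flower library (1.37, adjusted p = 0.0551 and 0.0553) or either Col-0 bud library (1.46, adjusted p = 0.0509 and 0.0508).

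TIP1;3 was the most abundant of the 5 genes per exon length in control buds. The place of ask1 changed from above the controls in open flowers to below them in buds. In buds TIP1;3 had 2.84 and 5.76 CPM in ask1, against 45.4 and 38.8 CPM in ASK1 WT and 38.4 and 42.5 CPM in Col-0. The ask1 libraries lay far below the 4 control libraries, which overlapped each other. The gene fell in ask1 buds at -3.31 ± 0.29 against ASK1 WT (9.95-fold, edgeR adjusted p = 1.71e-05) and -3.26 ± 0.29 against Col-0 (9.56-fold, edgeR adjusted p = 2.94e-05). Without ask1 bud replicate 1 these values were -2.87 and -2.81, without replicate 2 they were -3.89 and -3.83, and all 4 passed.

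The ask1 effect on TIP1;3, taken against ASK1 WT, differed between open flowers and buds by 4.20 ± 0.49 (edgeR interaction, adjusted p = 0.00163), where 6.82% of tested genes passed. This value ranged from 3.75 to 4.77 when single libraries were left out. Between the stages it was at -0.89 ± 0.35 in ask1, which did not pass (edgeR adjusted p = 0.0669), but fell at -5.09 ± 0.33 in ASK1 WT and -5.60 ± 0.36 in Col-0 (34.0-fold and 48.5-fold, edgeR adjusted p = 1.02e-06 and 8.15e-07). The ask1 stage value passed without ask1 bud replicate 1 (-1.34, adjusted p = 0.0101), with DESeq2 (-0.94, adjusted p = 0.0263), with no filter on low counts (-0.96, adjusted p = 0.0460) and with the exon length trend removed (-1.08, adjusted p = 0.0182).

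TIP5;1 was the member that fell in both tissues. In open flowers it had 4.88 and 2.12 CPM in ask1, against 40.5 and 35.8 CPM in ASK1 WT and 41.8 and 39.2 CPM in Col-0. In buds it had 0.709 and 1.42 CPM in ask1, against 17.8 and 18.8 CPM in ASK1 WT and 15.8 and 19.4 CPM in Col-0. In neither tissue did ask1 overlap a control, and the controls overlapped each other. The gene fell in ask1 open flowers at -3.46 ± 0.30 against ASK1 WT (11-fold, edgeR adjusted p = 1.86e-05) and -3.54 ± 0.30 against Col-0 (11.6-fold, edgeR adjusted p = 1.63e-05). In buds it fell at -4.13 ± 0.36 against ASK1 WT (17.5-fold, edgeR adjusted p = 1.62e-05) and -4.08 ± 0.36 against Col-0 (16.9-fold, edgeR adjusted p = 2.77e-05). All 4 calls held with single libraries left out, at -4.31 to -2.97 in open flowers and -4.67 to -3.62 in buds, where ask1 open-flower replicates 1 and 2 and ask1 bud replicates 2 and 1 set the ends. The tissue difference of its ask1 effect was 0.68 ± 0.49 and did not pass (95% interval -0.41 to 1.76, edgeR adjusted p = 0.424), except without ask1 open-flower replicate 2 (1.17, adjusted p = 0.0151).

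This gene was the only tested member that rose in open flowers against buds, and it did so in each genotype. The rise was 1.74 ± 0.41 for ask1 (edgeR adjusted p = 0.00702), where 22.2% of tested genes rose. It was 1.06 ± 0.25 for ASK1 WT (edgeR adjusted p = 0.00673), where 18.4% rose, and 1.20 ± 0.25 for Col-0 (edgeR adjusted p = 0.00325), where 18.8% rose. The ask1 value did not pass without ask1 bud replicate 1 (1.28, adjusted p = 0.0791) or with only the ask1 libraries in the fit (1.64, adjusted p = 0.114), and it was 0.99 without ask1 open-flower replicate 1. In addition, the ASK1 WT value did not pass without ASK1 WT bud replicate 1 (1.02, adjusted p = 0.0563). A stretch of 91 exon bases of TIP5;1 (9.1%) overlaps the opposite-strand gene NOA1 (AT3G47450), and whether reads were counted by strand is not stated, so reads of that stretch are uncertain. NOA1 had 40.7 and 50.0 CPM in open flowers of ask1, against 39.4 and 40.4 CPM in ASK1 WT and 31.6 and 34.2 CPM in Col-0. In buds it had 50.7 and 44.2 CPM in ask1, against 30.6 and 30.1 CPM in ASK1 WT and 32.0 and 31.9 CPM in Col-0, and its ask1 libraries did not lie below the controls in either tissue.

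**Figure D2:**
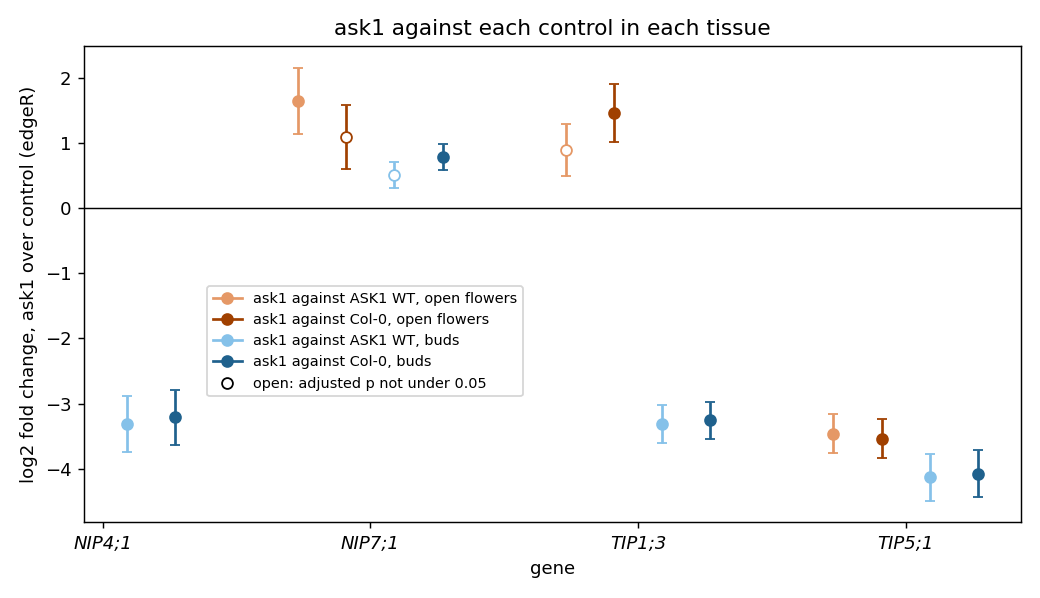
Log2 fold change of ask1 over each control (vertical axis, edgeR estimate, bars ± SE, 2 libraries per group) for the 4 tested genes, with filled points where the adjusted p was under 0.05. NIP4;1 is drawn for buds only because its control counts in open flowers were 0 or 1. TIP5;1 lies between -3.46 and -4.13 in all 4 comparisons, whereas TIP1;3 lies above 0 in open flowers and at -3.31 and -3.26 in buds and NIP7;1 lies above 0 throughout.

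The controls were also set against each other. None of the 4 tested members passed the edgeR test between ASK1 WT and Col-0 in open flowers or in buds. None had an unadjusted p under 0.05, the lowest being 0.199, and 0 of the 4 passed with DESeq2. Of all genes, 0.0411% passed in open flowers and 0.320% in buds. The log2 values of ASK1 WT against Col-0 in open flowers were -0.56 ± 0.60 for AT3G06100 (NIP7;1), 0.57 ± 0.49 for AT4G01470 (TIP1;3) and -0.08 ± 0.24 for AT3G47440 (TIP5;1). In buds they were 0.28 ± 0.20, 0.06 ± 0.24 and 0.06 ± 0.26 for the same genes, and 0.11 ± 0.35 for AT5G37810 (NIP4;1).

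Levels can be compared between genes only per exon length. In ask1 open flowers TIP5;1 was at 3.50 ± 1.95 CPM per kb (SD, n = 2) and TIP1;3 at 2.08 ± 0.444, and their libraries overlapped. In Col-0 open flowers TIP5;1 stood at 40.5 ± 1.83 CPM per kb and the other 4 genes below 1. In ask1 buds AT3G06100 (NIP7;1) came first at 34.9 ± 3.03 CPM per kb, followed by AT4G01470 (TIP1;3) at 3.91 ± 1.88, AT5G37810 at 1.67 ± 1.06 and AT3G47440 at 1.07 ± 0.504, of which the last 2 overlapped. In Col-0 buds the order was AT4G01470 at 36.8 ± 2.65 CPM per kb, AT3G06100 at 20.1 ± 2.62, AT3G47440 at 17.6 ± 2.55, AT5G37810 at 15.1 ± 4.33 and AT5G37820 at 0. In Col-0 buds the libraries of AT3G47440 overlapped those of AT3G06100 and those of AT5G37810, so its place in that order is uncertain. The libraries of AT3G06100 lay just above those of AT5G37810, at 18.3 CPM per kb or more against 18.2 or less. In ASK1 WT buds the libraries of these genes did not overlap, at 22.8 and 26.1 CPM per kb for AT3G06100, 17.8 and 18.8 for AT3G47440 and 16.6 and 16.1 for AT5G37810.

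The 5 genes were a small part of the aquaporin message of a flower. They held 0.199% and 0.172% of the summed CPM per kb of 35 aquaporin genes in ask1 open flowers, against 0.840% and 0.801% in ASK1 WT and 0.988% and 0.781% in Col-0. In buds they held 1.16% and 1.40% in ask1, against 1.97% and 1.99% in ASK1 WT and 1.72% and 2.03% in Col-0. The plasma-membrane water channel gene PIP2;7 was first of the 35 in all 6 groups, at 935 ± 29.8 CPM per kb in Col-0 buds.

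Markers of the pollen vegetative cell were lower in ask1 in both tissues. The 19 markers of the pollen vegetative cell summed to 1081 to 1174 CPM in ask1 open flowers, against 8562 to 9487 CPM in ASK1 WT and 10141 to 10268 CPM in Col-0. In buds they summed to 115 to 342 CPM in ask1, against 3833 to 3927 CPM in ASK1 WT and 3413 to 3603 CPM in Col-0. Of the 19, 18 fell and 1 did neither against ASK1 WT in each tissue, with medians of -2.96 in open flowers and -4.35 in buds, where the median of all tested genes was 0.01 and -0.05. Of all tested genes, 15.9% fell in open flowers and 17% in buds against ASK1 WT. None of the 19 markers was at 0 in any group. TIP5;1 fell with them in both tissues and NIP4;1 and TIP1;3 fell with them in buds, but not in open flowers, and their part in these falls was not tested.

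Markers of the male germ line and of the tapetum, the nurse tissue of the anther, behaved differently from each other. The 8 germ-line markers summed to 9.36 to 14.3 CPM in ask1 open flowers, against 79.1 to 94.6 CPM in ASK1 WT and 88.1 to 91.2 CPM in Col-0, and to 2.07 to 3.39 CPM in ask1 buds, against 30.9 to 37.4 CPM in ASK1 WT and 32.4 to 35.7 CPM in Col-0. GEX2 was at 0 counts in every group. Of the 7 tested, 4 fell in open flowers and 6 in buds against ASK1 WT, where 15.9% and 17% of all tested genes fell. DUO1, DAZ1 and DAZ2 had only 8, 2 and 9 counts in ASK1 WT open flowers, where a fall could hardly be detected. The 16 tapetum markers summed to 30.4 to 40.2 CPM in ask1 open flowers, against 31.8 to 32.8 CPM in ASK1 WT and 35.2 to 36.4 CPM in Col-0. In buds, where NIP7;1 was high, they summed to 1439 to 1522 CPM in ask1, against 1633 to 1644 CPM in ASK1 WT and 1571 to 1690 CPM in Col-0. Of the 16, 1 rose in ask1 open flowers and 2 fell in ask1 buds against ASK1 WT, with a bud median of -0.11. The shares of all tested genes were 14.1% that rose in open flowers and 17% that fell in buds. DYT1, MS1 and ATA7 were at 0 in open flowers of all 3 genotypes. The 7 carpel and ovule markers summed to 273 to 317 CPM in ask1 open flowers, against 311 to 320 CPM in ASK1 WT and 284 to 301 CPM in Col-0, and to 152 to 155 CPM in ask1 buds, against 162 to 164 CPM in ASK1 WT and 159 CPM in both Col-0 libraries.

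Set against the vegetative-cell markers of the same library, a measure chosen after the values were seen and given without a test, TIP5;1 varied less between genotypes than TIP1;3 did. Its CPM was 0.416% and 0.196% of their sum in ask1 open flowers, 0.427% and 0.418% in ASK1 WT and 0.412% and 0.382% in Col-0. In buds it was 0.617% and 0.415% in ask1, 0.464% and 0.478% in ASK1 WT and 0.438% and 0.568% in Col-0. The 11 libraries other than ask1 open-flower replicate 2 lay between 0.382% and 0.617%. The marker sum is carried largely by VGD1 and VGDH1, at 3678 and 2105 CPM of 10141 to 10268 CPM in Col-0 open flowers. The share of TIP1;3 was 0.224% and 0.180% in ask1 open flowers, against 0.0104% and 0.0177% in ASK1 WT and 0.0107% and 0.00543% in Col-0, and 2.47% and 1.68% in ask1 buds, against 1.18% and 0.989% in ASK1 WT and 1.07% and 1.25% in Col-0. Both ask1 libraries were above all controls in each tissue. In control open flowers the TIP1;3 shares rest on 9 to 26 counts per library. NIP4;1 in buds was at 0.949% and 0.831% in ask1, against 0.508% and 0.482% in ASK1 WT and 0.394% and 0.627% in Col-0. NIP7;1 as a share of the tapetum sum in buds was 3.32% and 3.97% in ask1, against 2.14% and 2.47% in ASK1 WT and 2.01% and 1.80% in Col-0.

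**Figure D3:**
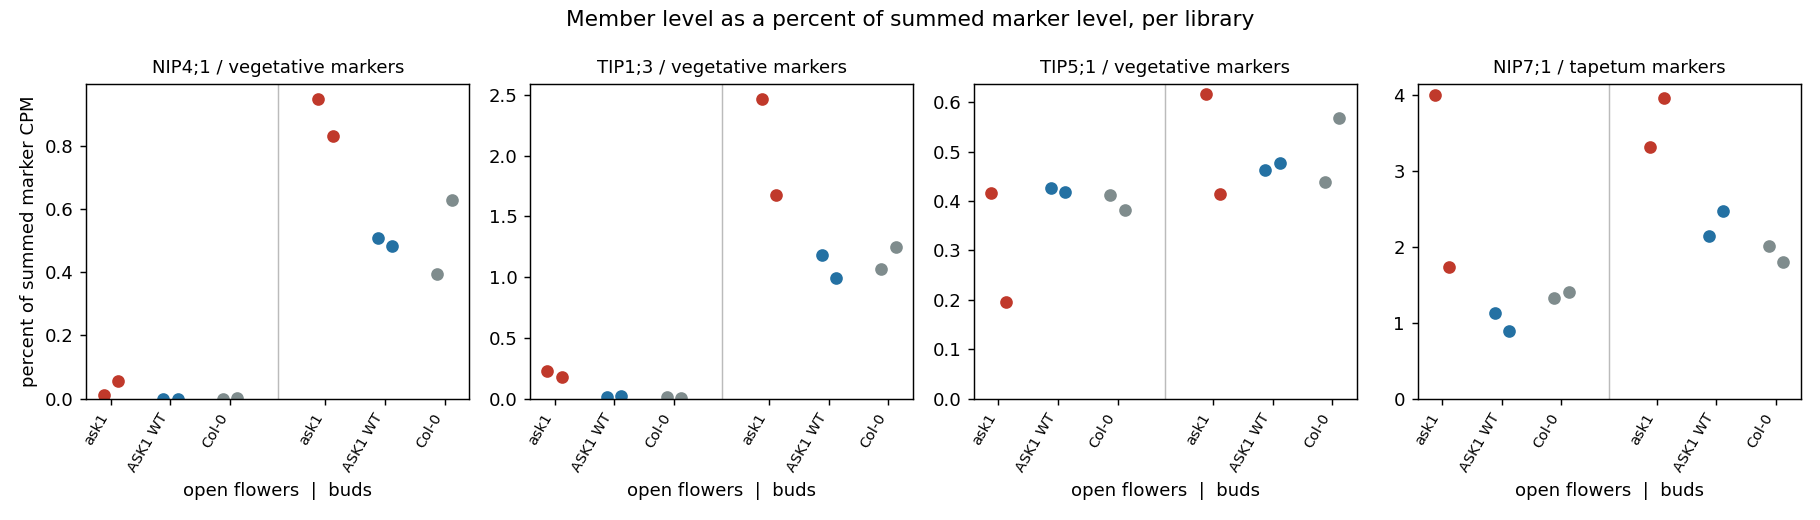
CPM of a gene as a percent of the summed CPM of marker genes in the same library (linear axes from 0, 19 vegetative-cell markers in the first 3 panels, 16 tapetum markers in the last), with open flowers left of buds and ask1 left of ASK1 WT and Col-0. Points are libraries. TIP5;1 lies between 0.196% and 0.617% in all 12 libraries, whereas NIP4;1 and TIP1;3 are near 0 in control open flowers and highest in ask1 buds.

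For each tested member, the genes whose pattern was most like it were taken as those with the smallest root mean square difference in centred log2 CPM over the 12 libraries, among 8775 genes with a symbol. The libraries share genotype and tissue, so this describes 6 groups rather than 12 independent points. Closest to NIP4;1 were ATOEP16-2 (AT4G16160) at 0.49, the RNA-binding protein gene LARP6c (AT3G19090) at 0.52 and the plasma-membrane proton pump gene HA9 (AT1G80660) at 0.60. HA9 averaged 48.9 ± 36.5 CPM in ask1 buds, against 609 ± 106 CPM in ASK1 WT buds. Closest to NIP7;1 were SHN1 (AT1G15360), which encodes an AP2-type transcription factor of cuticle formation, at 0.50, the aspartyl protease gene UND (AT4G12920) at 0.54 and the cystatin gene CYS2 (AT2G31980) at 0.55. Closest to TIP1;3 were VATG3 (AT4G25950), a subunit of the vacuolar proton pump, at 0.47, the acid phosphatase gene PAP23 (AT4G13700) at 0.50 and TRFL2 (AT1G07540) at 0.53. Closest to TIP5;1 were sks11 (AT3G13390) at 0.30, the receptor-like kinase gene PERK5 (AT4G34440) at 0.35 and GPX4 (AT2G48150) at 0.36. The difference is not scaled to a gene's spread, which over the libraries was an SD of 2.01 for TIP5;1 and 3.19 for NIP4;1, so it does not rank the members. The gene sks11 averaged 61.1 ± 2.84 CPM in ask1 open flowers, against 579 ± 40.7 CPM in ASK1 WT, and 17.6 ± 12.3 CPM in ask1 buds, against 325 ± 4.40 CPM in ASK1 WT (SD, n = 2 each).

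Of the other 30 aquaporin genes, 25 were tested. Against ASK1 WT, 4 rose, 6 fell and 15 did neither in open flowers, and 3 rose, 7 fell and 15 did neither in buds, with medians of -0.17 and -0.31 beside 0.01 and -0.05 for all genes. Of all tested genes, 14.1% rose and 15.9% fell in that open-flower comparison, and 8.84% rose and 17% fell in buds. Against Col-0, 4 rose, 5 fell and 16 did neither in open flowers, and 2 rose, 8 fell and 15 did neither in buds. The shares of all tested genes were 12.9% and 14.3% there in open flowers, and 7.04% and 14.1% in buds. The plasma-membrane channel genes PIP2;1, PIP2;7 and PIP1;4 fell in all 4 comparisons. PIP2;1 was at -0.99 ± 0.21 in open flowers and -1.11 ± 0.21 in buds against ASK1 WT, and PIP2;7 was at -0.80 ± 0.24 and -1.03 ± 0.25. NIP6;1, a boric acid channel gene, was the lowest of the 25 in buds against ASK1 WT at -1.22 ± 0.17 (edgeR adjusted p = 3.33e-04). It stood at -0.94 ± 0.17 against Col-0. There SIP1;2 was the lowest at -1.21 ± 0.15, but its controls lay apart. SIP1;2 averaged 7.76 CPM in ask1 buds, 8.8 CPM in ASK1 WT buds and 18 CPM in Col-0 buds. Against ASK1 WT its bud value was -0.18 ± 0.16 and did not pass (edgeR adjusted p = 0.455). NIP1;2 rose in all 4 comparisons, by 0.43 ± 0.14 in open flowers and 0.57 ± 0.13 in buds against ASK1 WT. Against ASK1 WT the largest rise was that of PIP2;2 in open flowers at 1.44 ± 0.19 (edgeR adjusted p = 2.76e-04), a close copy of its neighbour PIP2;3 and therefore uncertain, and in buds that of NIP1;1 at 1.77 ± 0.46 from 52 counts in ask1 and 16 in ASK1 WT. Against Col-0 the bud value of NIP1;1 was 0.60 ± 0.41 and did not pass (edgeR adjusted p = 0.353), and the largest bud rise was that of TIP4;1, a tonoplast channel gene, at 1.20 ± 0.30 (1.08 ± 0.30 against ASK1 WT). No tested aquaporin outside the members fell as far as the 3 members that fell in buds against ASK1 WT.

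**Figure D4:**
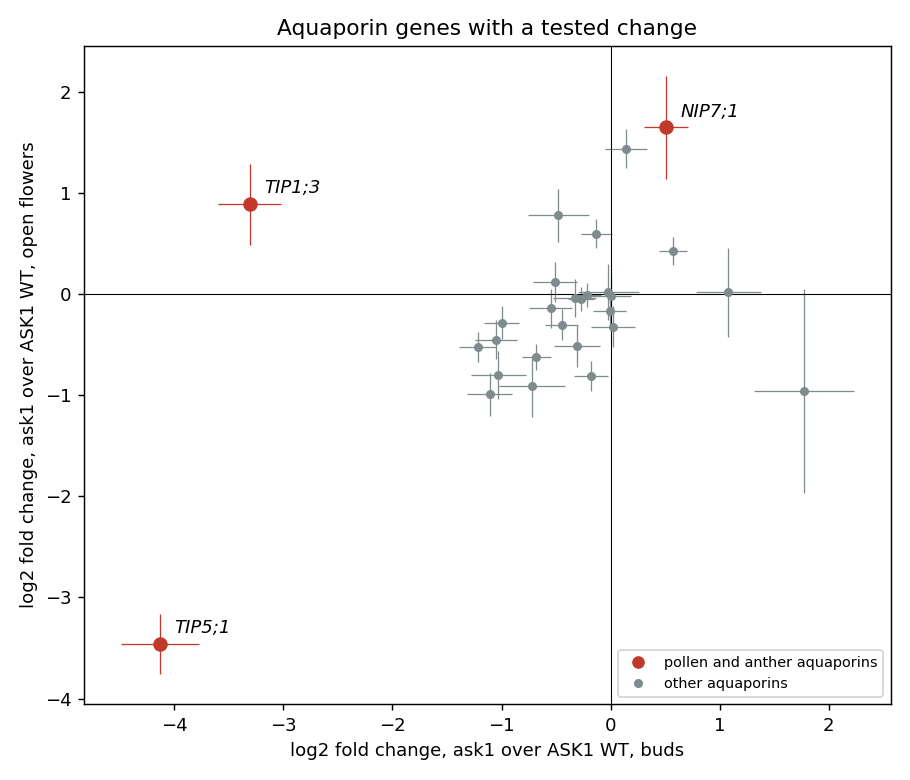
Log2 fold change of ask1 over ASK1 WT in buds (horizontal) and in open flowers (vertical) for the tested aquaporin genes, with bars ± SE (edgeR, 2 libraries per group). Members are large and named, and NIP4;1 is left out because ASK1 WT open flowers had 0 counts. TIP5;1 lies at -3.46 in open flowers and -4.13 in buds, TIP1;3 at 0.89 and -3.31, and the grey points of the other aquaporins lie between -1.22 and 1.77 in buds.

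Boron exporters work beside boric acid channels in plants, and the 7 annotated BOR genes were all tested. Against ASK1 WT, 1 rose, 3 fell and 3 did neither in open flowers, and 1 rose, 2 fell and 4 did neither in buds. Of all tested genes, 14.1% rose and 15.9% fell in that open-flower comparison, and 8.84% rose and 17% fell in buds. BOR7 (AT4G32510) averaged 9.71 ± 0.924 CPM in ask1 open flowers, against 158 ± 6.71 CPM in ASK1 WT, and 4.26 ± 2.32 CPM in ask1 buds, against 62.9 ± 3.03 CPM in ASK1 WT. It fell in both tissues, at -4.03 ± 0.26 and -3.91 ± 0.27. BOR6 (AT5G25430) fell in open flowers at -3.68 ± 0.24 and also in buds, where ask1 had 1 count and ASK1 WT 112. BOR2 (AT3G62270) rose against ASK1 WT by 0.93 ± 0.24 in open flowers and 0.86 ± 0.25 in buds. Against Col-0 its values were 0.64 ± 0.24 (edgeR adjusted p = 0.0677) and 0.57 ± 0.25 (edgeR adjusted p = 0.135), and neither passed. Of the 7 exporters, 0 rose, 3 fell and 4 did neither against Col-0 in open flowers, and 0 rose, 2 fell and 5 did neither in buds, with BOR7 at -4.24 ± 0.26 and -3.50 ± 0.27. Of all tested genes, 12.9% rose and 14.3% fell against Col-0 in open flowers, and 7.04% rose and 14.1% fell in buds.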

How the data were processed

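The authors deposited raw read counts for 33602 genes in each library. Trimmomatic, TopHat2 and HTSeq were named with the build TAIR10, per the submitters' processing notes, without versions, settings or strand. HTSeq's summary lines, 7.60% to 9.70% of a library, stayed out of library sizes and tests.

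Genes passing edgeR's expression filter (minimum count 10, minimum total 15) were scaled by TMM. A model with 1 mean per group over 12 libraries was fitted with edgeR 4.0.16 (R 4.3.3), with robust quasi-likelihood tests and Benjamini-Hochberg adjustment over 21890 genes at 0.05. The SE is the log2 fold change divided by the square root of F. DESeq2 1.42.0 was an alternative. Exon lengths (21826 tested genes), positions, names and sequences came from RefSeq TAIR10.1, matched by identifier. Log2 CPM used a prior count of 2. The fit was also run on simulated counts. These lacked the exon length difference of the ask1 open-flower pair, so they cannot show whether calls there hold.

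Members and lists were chosen with earlier results of these data known. Named genes were the members, ASK1, the most changed other aquaporins and those called in all 4 ask1 comparisons, the most abundant aquaporin, up to 2 exporters and markers per list, and the 3 genes most like each member. NOA1, BOR2, the levels of HA9 and sks11 and the genes at 0 were chosen after their values were seen. Not every gene the rule names is printed.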

Additional observations from a re-analysis of the deposited data

Results flagged for a closer look

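The effect of ask1 against ASK1 WT differed between open flowers and buds in 2 of the 4 tested members, by the edgeR interaction test, where 6.82% of all tested genes passed. Of the 19 vegetative-cell markers, 3 passed with a positive difference and 16 did not pass, with a median of 1.43 beside 0.08 for all genes. For TIP1;3 the difference was 4.20 ± 0.49 on the log2 scale (adjusted p = 0.00163), with 0.89 ± 0.40 in open flowers and -3.31 ± 0.29 in buds. Its open-flower side rests on 74 counts in ask1 and 48 in ASK1 WT. For NIP4;1 the difference was 9.02 ± 1.76 (adjusted p = 0.0176). The open-flower side of NIP4;1 rests on 12 counts in ask1 and 0 in ASK1 WT, so the size is not a measured fold. That call was lost without ask1 open-flower replicate 2 (adjusted p = 0.105) and without either ASK1 WT open-flower library (adjusted p = 0.0669 and 0.0580).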

How the results depend on the processing

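No paired analysis was possible because the labels did not say which libraries of different groups belong together. The replicate numbers used here only name libraries. Over all members, comparisons and alternatives, 731 values stayed on their side of the threshold, 50 lost a call, 13 gained one and no called value changed sign. Numbers below are genes called at an adjusted p under 0.05 unless members are named.

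Leaving out single libraries gave these ranges. For ask1 against ASK1 WT they were 3222 to 11573 genes in open flowers (6559 with all libraries) and 3379 to 9092 in buds (5661), with 1 to 3 members called in open flowers (3) and 3 to 4 in buds (3). For ask1 against Col-0 they were 2882 to 11231 in open flowers (5953) and 2537 to 8329 in buds (4627), with 1 to 3 members called in open flowers (2) and 3 to 4 in buds (4). For ASK1 WT against Col-0 they were 1 to 37 in open flowers (9) and 2 to 655 in buds (70). Open flowers against buds gave 5580 to 12867 in ask1 (8248), 5557 to 10998 in ASK1 WT (7738) and 5559 to 10994 in Col-0 (7842), with 2 to 3 members in ask1 (3) and 3 to 4 in ASK1 WT (4). The tissue difference gave 484 to 8571 genes (1492) and 1 to 3 members (2).

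Tested against a 2-fold change, ask1 against ASK1 WT gave 1224 genes and 1 member in open flowers and 1593 genes in buds, and ask1 against Col-0 gave 1054 genes and 1 member in open flowers and 1276 genes in buds. ASK1 WT against Col-0 gave 1 and 4. Open flowers against buds gave 2694 genes and 1 member in ask1, 3267 genes in ASK1 WT and 3374 in Col-0, and the tissue difference 213 genes and 1 member. With only the libraries compared in the fit, open flowers gave 2109 genes and 1 member for ask1 against ASK1 WT, 1653 genes and 1 member for ask1 against Col-0 and 397 genes for ASK1 WT against Col-0, which gave 748 in buds. That fit gave 3468 genes and 1 member for open flowers against buds of ask1 and 513 genes and 1 member for the tissue difference. Without both ask1 open-flower replicate 1 and ask1 bud replicate 2, ask1 against Col-0 gave 7437 genes in buds, ASK1 WT against Col-0 gave 165 in open flowers and 1170 in buds, and the tissue difference 4132. DESeq2 gave 30 and 284 genes for ASK1 WT against Col-0 in open flowers and buds. Removing the exon length trend gave 178 for ASK1 WT against Col-0 in buds and 2390 for the tissue difference. The cause was not tested in these cases. Depth limits NIP4;2 in every library and NIP4;1 and NIP7;1 in open flowers, where a few counts set the value.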
